A study of Mus musculus with 12 samples.

Results

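Interferon regulatory factors are transcription factors that bind interferon response elements through a shared DNA-binding domain. The 8 family members Irf1, Irf2, Irf3, Irf4, Irf5, Irf7, Irf8 and Irf9 were followed in mouse dendritic cells that took up polymer nanoparticles. They were found as the probes whose RefSeq accession belongs to these gene symbols, which gave 11 probes for 8 genes among 18407 genes tested. Irf1, Irf8 and Irf9 had 2 probes each, and the brighter one stands for the gene. All 11 probes were well above background on 12 of 12 arrays, and none was saturated on any array.

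The cells were grown for 7 days from the bone marrow of female mice aged 6 to 8 weeks in GM-CSF at 20 ng/ml. Non-adherent and loosely adherent cells were then taken as immature dendritic cells and cultured with 300 µg/ml of γ-PGA nanoparticles, made of a biodegradable poly(γ-glutamic acid). RNA was taken at 0, 6, 12 and 24 h from 3 samples per time, described as independent experiments, on Agilent 1-colour arrays. The groups share the way the marrow was cultured, the GM-CSF and the day of harvest. Whether samples of different times came from the same marrow culture was not settled. No culture without particles was kept for 6, 12 or 24 h, so exposure and time in culture cannot be told apart. The mouse strain was not stated in the descriptions available.

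In cells that sense microbes, receptors at the surface, in endosomes and in the cytosol signal through adaptors to the kinases Tbk1 and Ikbke, which phosphorylate Irf3 and Irf7 so that they enter the nucleus and switch on interferon beta. Secreted interferon then acts through its receptor and assembles Irf9 with STAT proteins into the complex ISGF3, which raises antiviral genes, Irf7 among them. Irf1 is raised by interferon gamma and by NF-kB signals, and Irf2 occupies the same sites and counters it. Irf4 and Irf8 are made mainly in blood cells, work with partners such as Spi1 and Batf, and take part in forming different subsets of dendritic cells, while Irf5 drives inflammatory cytokine genes below Toll-like receptors.

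The promoters of the members are shown first because Irf1, Irf7 and Irf8 were all called higher at 12 h in both sources, and Irf2 is the known antagonist of Irf1. RefSeq windows (build GRCm38.p6) were at hand for all 8 members, with 2 start sites each for 3 of them, or 11 windows in all. The 250 bases before each start were searched on both strands for 3 motifs. These were the ISRE core, spelled GAAA, NN and GAAA in a row and bound by the family and by ISGF3, the GAS element TTCNNNGAA, bound by STAT dimers, and the NF-kB consensus. Matches in the windows below are in capitals, the rest of each sequence is in lower case, and each reads 5′ to 3′ along the strand of its gene. The windows are chr11:53769764-53770013 on the plus strand for the first start of Irf1, chr8:120736108-120736357 on the plus strand for the first start of Irf8, chr7:141266425-141266674 on the minus strand for Irf7 and chr8:46739495-46739744 on the plus strand for Irf2.
Irf1: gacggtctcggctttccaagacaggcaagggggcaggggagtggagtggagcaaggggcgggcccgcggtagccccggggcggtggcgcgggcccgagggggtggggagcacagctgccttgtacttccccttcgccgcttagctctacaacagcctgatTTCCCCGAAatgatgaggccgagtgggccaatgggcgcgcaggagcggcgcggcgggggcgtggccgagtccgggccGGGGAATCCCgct
Irf8: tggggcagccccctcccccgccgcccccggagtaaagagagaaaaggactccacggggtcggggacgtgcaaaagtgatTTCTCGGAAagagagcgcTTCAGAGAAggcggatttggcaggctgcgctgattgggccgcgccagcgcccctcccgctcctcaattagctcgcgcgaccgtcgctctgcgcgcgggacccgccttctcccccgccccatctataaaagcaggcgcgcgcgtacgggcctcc
Irf7: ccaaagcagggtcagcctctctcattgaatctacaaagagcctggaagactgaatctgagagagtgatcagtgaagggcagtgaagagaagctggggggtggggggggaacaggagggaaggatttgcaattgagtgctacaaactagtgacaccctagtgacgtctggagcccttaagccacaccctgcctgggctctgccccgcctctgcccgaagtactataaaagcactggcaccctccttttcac
Irf2: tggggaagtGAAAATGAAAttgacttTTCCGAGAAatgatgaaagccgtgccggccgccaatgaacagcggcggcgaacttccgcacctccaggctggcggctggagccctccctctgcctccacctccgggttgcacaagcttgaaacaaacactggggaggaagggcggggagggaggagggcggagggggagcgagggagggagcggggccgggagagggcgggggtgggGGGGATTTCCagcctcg

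The Irf1 window held the GAS match TTCCCCGAA at 90 to 82 bases before the start and the NF-kB match GGGGAATCCC at 13 to 4 bases before it. The Irf8 window held 2 GAS matches, TTCTCGGAA at 171 to 163 bases and TTCAGAGAA at 153 to 145 bases before the start. The Irf2 window held all 3 motifs: the ISRE match GAAAATGAAA at 241 to 232 bases, the GAS match TTCCGAGAA at 224 to 216 bases and the NF-kB match GGGGATTTCC at 17 to 8 bases before the start. No matches overlapped. These letters were not in the Irf7 window, nor in those of Irf3, Irf4, Irf5 and Irf9 or at the second starts. Among 32851 mouse windows of the same length, 2.98% held the ISRE core, 7.02% the GAS element and 3.9% the NF-kB consensus. A match describes letters only and shows no binding.

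The series holds 2 sets of values under the same sample labels, and the changes of the members are given for both. The scanner values are log2 of the processed spot signal minus the 75th percentile of the array, a scaled level that can be compared between times for 1 probe but not between probes. The value table that the authors deposited holds linear ratios of each probe to its median at 0 h. A gene counts as called where limma's test gave a p under 0.05 after Benjamini-Hochberg adjustment over the 18407 genes and the fold was 2 or more. The 2 sets differ. Across all genes, the changes against 0 h in both sets correlated at Pearson's r of 0.729 at 6 h, 0.538 at 12 h and -0.0749 at 24 h, a description over genes, which are not replicates. In the scanner files the arrays labelled 24 h stood close to those at 0 h: their group means correlated at 0.9937 with 0 h, against 0.9276 with 6 h and 0.914 with 12 h. By the table, 26.3% of genes were called at 24 h against 0 h, where the scanner values had 0.837%. Some called changes of members also had opposite signs in the 2 sets at 6 and 12 h, those of Irf4 among them. Whether both sets come from the same arrays was not tested for any time. Which set holds the 24 h samples was not tested either, so statements on 24 h name their source. Every call of a member at 6 and 12 h was also made when the 24 h arrays or columns were left out of the fit.

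The 75th percentile of the signal was between 338.6 and 472.3 intensity units, and the share of spots well above background was 50.9% to 59.6%. The arrays lay on 3 slides. Slide 1 carried the 0 h arrays and replicate 1 of 6 h. Slide 2 carried the other 6 h arrays together with replicates 1 and 2 of 12 h. Slide 3 carried replicate 3 of 12 h and the 24 h arrays. In the table, the median log2 change over all genes was 0.14, 0.22 and 0.12 at 6, 12 and 24 h, and 0.014, -0.047 and 0.024 once each column was divided by its median. The table's calls at 12 h were 2889 higher and 2227 lower as deposited, and 2007 higher and 2970 lower after that division. All 9 conventional dendritic cell markers passed the filter on dim probes, Itgax, H2-Ab1 and Zbtb46 among them, and their calls went both ways. In the scanner values 1 was higher (Zbtb46, 1.14 at 6 h and 1.23 at 12 h on the log2 scale) and 1 lower (Clec9a, -1.80 and -1.53) at each of these times, and 0 were called at 24 h. By the table's ratios 2 were higher and 2 lower at 6 h, 1 higher at 12 h, and 2 higher (Flt3 at 4.38 and Clec9a at 1.68) and 2 lower (Ciita at -1.86 and Dpp4 at -1.58) at 24 h. Their summed scaled signal was 355.1 to 375.5 at 0 h, 360.4 to 411.1 at 6 h, 394.2 to 464.3 at 12 h and 352.5 to 361.3 at 24 h. Markers of other cells moved too. Of 7 granulocyte markers, 3, 4 and 7 were lower in the table at 6, 12 and 24 h, and 2, 0 and 0 in the scanner values. Their summed scaled signal in the scanner files was between 293.1 and 301.2 at 0 h, 282.3 and 325.6 at 6 h, 334.9 and 382.6 at 12 h, and 293.6 and 301.7 at 24 h. Of 4 plasmacytoid dendritic cell markers that passed, 2 were higher and 1 lower at 6 h, 3 higher at 12 h and 0 at 24 h in the scanner values, and 3, 2 and 2 higher by the table. Their sum was 33.0 to 33.5 at 0 h, 76.6 to 89.8 at 6 h, 198.1 to 235.7 at 12 h and 32.2 to 33.7 at 24 h. One of them, Bst2, is itself an interferon target, and Siglech, which defines these cells, did not pass. Of 3 macrophage markers that passed, Fcgr1, also raised by interferon, was called lower at 6 h in both sources (-1.45 in the scanner values and -2.11 in the table), and at 12 h higher in the scanner values (1.71) and lower in the table (-2.77). It was also lower at 24 h in the table (-2.20), and Mertk was lower there at 12 h (-1.10). Their sum was 125.5 to 126.9 at 0 h, 136.9 to 152.6 at 6 h, 259.9 to 287.3 at 12 h and 125.2 to 132.2 at 24 h. Among markers of lymphocytes and mast cells, Cd79a, Pax5, Ncr1 and Ms4a2 did not pass. Of those that passed, Lck of T cells was higher at 12 h (2.82 in the scanner values and 1.72 in the table) and Klrb1c of NK cells lower (-1.62 and -1.77). The T cell markers did not move together. Cd3g was called lower at 12 h in the scanner values (-1.46) and not called in the table (-0.16). Cd3e was called higher at 6 h in the table (1.11) and not called in the scanner values (0.54). All 3 mast cell and basophil markers that passed were lower at 24 h in the table (Cpa3 at -2.30, Mcpt8 at -1.41 and Fcer1a at -1.13), and 0 were called in the scanner values. The scaled sums of these markers were at most 1.81 in any array for each cell type. The part of these cells in the results was not tested. In such bulk samples fewer cells of a type and less RNA per cell cannot be told apart.

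At 6 h against 0 h, Irf7 and Irf8 rose in both sources, each past 2-fold. In the scanner values 3 of 8 members were called, Irf7 and Irf8 higher and Irf2 lower, where 26.1% of all genes were called (10.2% higher and 15.9% lower). The value table had 4 of 8 called, Irf1, Irf7 and Irf8 higher and Irf4 lower, beside 25% of all genes (13.3% higher and 11.8% lower). At 12 h the scanner values called 5 of 8, all higher (Irf1, Irf4, Irf7, Irf8 and Irf9), where 13.7% of all genes were called higher, 16.9% lower and 30.6% in either direction. The table called the same 4 genes as at 6 h in the same directions, beside 27.8% of all genes (15.7% higher and 12.1% lower). The median change of the 8 members at 12 h was 1.05 on the log2 scale in the scanner values, against -0.029 over all genes, and 0.16 in the table, against 0.22 over all genes. Irf3 and Irf5 were called in neither source at any time.

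At 24 h against 0 h, 0 of 8 members were called by limma in the scanner values, beside 0.837% of all genes. Irf5 and Irf7 had unadjusted p under 0.05, at 0.025 and 0.00257, with changes of 0.11 and 0.29 on the log2 scale. The share of all genes with an unadjusted p under 0.05 was not counted, so nothing is read from these. The table called 3 of 8 at 24 h, Irf1 and Irf8 higher and Irf4 lower, beside 26.3% of all genes. Over the whole course, limma's F-test with a 2-fold change at any time counted 6 of 8 members in the scanner values, all but Irf3 and Irf5, where 36.1% of genes were counted. It counted 4 of 8 in the table (Irf1, Irf4, Irf7 and Irf8), beside 36.9% of genes.

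**Figure D1:**
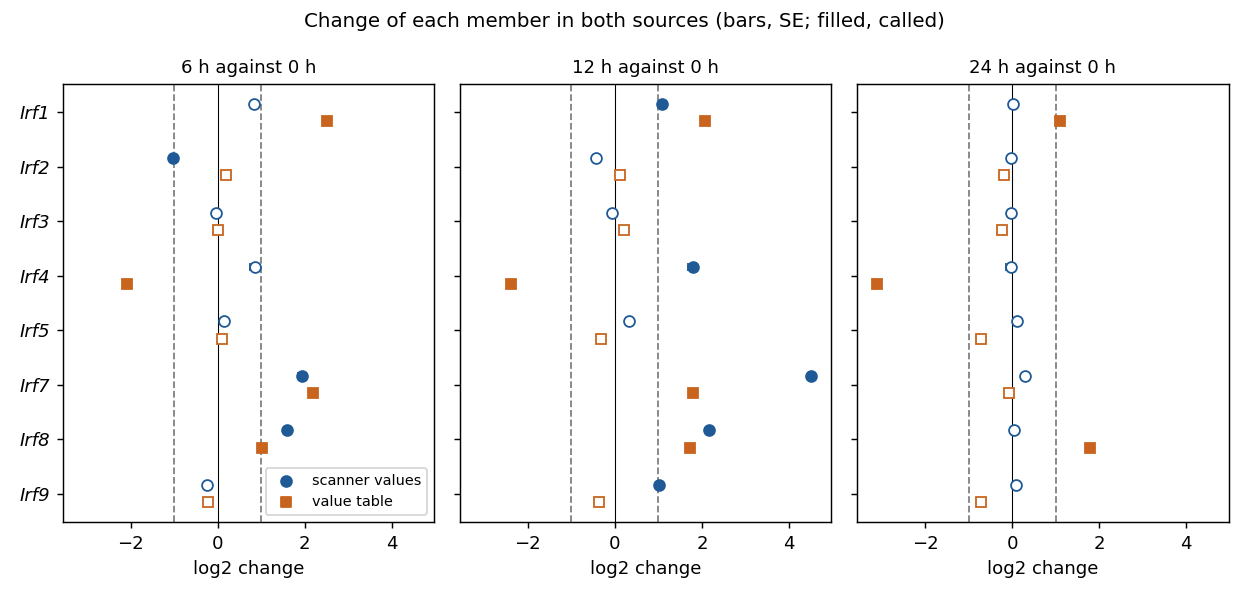
Log2 change of each member at 6, 12 and 24 h against 0 h, with the scanner values as circles and the value table as squares; bars give the SE (mostly smaller than the symbol), filled symbols were called and dashed lines mark a 2-fold change. Irf7 and Irf8 are filled in both sources at 6 and 12 h, Irf4 lies on opposite sides of 0 at these times, and no scanner value is filled at 24 h.

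Irf7, which carries the main positive loop of the interferon response, had the largest change of any member in the scanner values. Its scaled log2 level was 1.76, 1.69 and 1.69 at 0 h, 3.56, 3.59 and 3.76 at 6 h, 6.21, 6.10 and 6.36 at 12 h, and 2.00, 2.01 and 2.00 at 24 h. No time overlapped with another, and the 3 arrays at 12 h stood far above the rest. In spot intensity this was 23217 to 32454 units at 12 h against 1405 to 1597 units at 0 h. Irf7 rose 3.79-fold at 6 h (log2 change 1.92 ± 0.071 SE, adjusted p = 3.49e-09) and 22.8-fold at 12 h (4.51 ± 0.071, adjusted p = 9.22e-12). Its rise ranked 700 at 6 h and 126 at 12 h among the 18407 genes. From 6 to 12 h it gained a further 6.01-fold (adjusted p = 2.34e-09).

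In the table the ratio of Irf7 was 1, 0.994 and 1.15 at 0 h, 4.85, 4.92 and 4.51 at 6 h, 3.71, 3.59 and 3.60 at 12 h, and 1.12, 0.884 and 0.984 at 24 h. The 6 h columns were the highest, and those at 24 h overlapped with 0 h. Irf7 rose 4.55-fold at 6 h (adjusted p = 6.86e-09) and 3.48-fold at 12 h (adjusted p = 2.6e-08), and its ratio at 24 h was 0.948 of that at 0 h (adjusted p = 0.453). Both sources thus placed it above the start at 6 and 12 h. The highest time was 12 h in the scanner values and 6 h in the table, where 12 h lay 0.39 below 6 h on the log2 scale (adjusted p = 0.0046), short of 2-fold. Under the alternatives within the table this adjusted p reached 0.272.

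Irf3, the factor present before any signal and switched on by phosphorylation, stayed within 2-fold in both sources. Its scanner levels were 3.85, 3.84 and 3.84 at 0 h, 3.85, 3.70 and 3.83 at 6 h, 3.78, 3.83 and 3.75 at 12 h, and 3.81, 3.79 and 3.85 at 24 h. All 12 values lay between 3.70 and 3.85, and the 6 and 24 h arrays overlapped with those at 0 h. The changes were -0.047 ± 0.046 at 6 h, -0.056 ± 0.046 at 12 h and -0.027 ± 0.046 at 24 h (adjusted p of 0.375, 0.292 and 0.81). In the table its ratio stayed between 0.827 and 1.26, with a change of 0.21 at 12 h (adjusted p = 0.0181), -0.24 at 24 h (adjusted p = 0.0105) and -0.46 at 24 h against 12 h (adjusted p = 0.000572), all under 2-fold. With quantile normalization the scanner change at 12 h was -0.40 (adjusted p = 2.91e-07), also under 2-fold, and the table's change at 12 h was -0.056 when columns were divided by their medians.

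Irf9, the DNA-binding subunit of ISGF3, differed in direction between the sources. Its scanner levels were 2.62, 2.60 and 2.62 at 0 h, 2.33, 2.32 and 2.42 at 6 h, 3.64, 3.52 and 3.70 at 12 h, and 2.71, 2.73 and 2.70 at 24 h. The 6 h arrays were the lowest and the 12 h arrays the highest, with no overlap. At 12 h it was called at 2.01-fold over 0 h (log2 change 1.00 ± 0.050, adjusted p = 2.83e-08) and 2.39-fold over 6 h (adjusted p = 2.92e-08). The first of these lies at the 2-fold line. It fell short at 0.94 with normexp background correction, 0.75 with quantile normalization, 0.92 with the slide as a block, 0.995 with the slide as a random block, and without 0 h replicate 2, 12 h replicate 1 or 12 h replicate 3.

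Its second probe had a change of 1.20 at 12 h in the scanner values. In the table, however, the ratio of Irf9 was 1, 0.924 and 1.17 at 0 h, 0.927, 0.859 and 0.847 at 6 h, 0.800, 0.819 and 0.754 at 12 h, and 0.636, 0.608 and 0.636 at 24 h. The values at 12 and 24 h were below those at 0 h. The change was -0.38 ± 0.081 at 12 h (adjusted p = 0.00177) and -0.71 ± 0.081 at 24 h (adjusted p = 2.02e-05), both under 2-fold, and the second probe gave -0.37 and -0.51.

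Irf1, the activator of interferon gamma and antigen presentation genes, was raised in both sources, with a larger size in the table. Its scanner levels were 4.91, 4.94 and 4.94 at 0 h, 5.82, 5.65 and 5.85 at 6 h, 6.11, 5.92 and 6.03 at 12 h, and 4.94, 4.95 and 5.00 at 24 h. The 6 and 12 h arrays stood above the others, and 24 h overlapped with 0 h. At 6 h it was 1.79-fold above 0 h (log2 change 0.84 ± 0.063, adjusted p = 7.99e-07), under the 2-fold line, and at 12 h it rose 2.13-fold (1.09 ± 0.063, adjusted p = 8.88e-08). With quantile normalization the change at 12 h was 0.49, short of 2-fold.

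In the table the ratio of Irf1 was 0.910, 1 and 1.12 at 0 h, 6.13, 5.39 and 5.63 at 6 h, 4.25, 4.46 and 3.88 at 12 h, and 2.08, 2.16 and 2.25 at 24 h. No time overlapped with another, and 6 h was the highest. Irf1 rose 5.67-fold at 6 h (2.50 ± 0.086, adjusted p = 2.17e-09), 4.17-fold at 12 h (adjusted p = 7.83e-09) and 2.15-fold at 24 h (adjusted p = 1.07e-06). Its second probe gave 2.27, 1.51 and 0.51 on the log2 scale. With quantile normalization the call at 24 h was lost (0.91, adjusted p = 0.07), as it was with the mean of both probes (0.81).

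Irf2, the antagonist of Irf1, was called against 0 h in the scanner values alone, as lower at 6 h, where Irf1 was not called. At 12 h, where Irf1 was called higher, Irf2 was not called. Its levels were 1.28, 1.27 and 1.33 at 0 h, 0.39, 0.15 and 0.23 at 6 h, 0.93, 0.84 and 0.79 at 12 h, and 1.23, 1.25 and 1.33 at 24 h. The 6 h arrays were the lowest, followed by those at 12 h, and 24 h overlapped with 0 h. Irf2 fell 2.05-fold at 6 h (log2 change -1.04 ± 0.064, adjusted p = 1.68e-07), and at 12 h it was 0.44 below 0 h (adjusted p = 0.000121), under 2-fold. The change at 6 h was under 2-fold with the slide as a block (-0.90), with normexp (-0.92) and without 6 h replicate 2 (-0.99). In the table its ratio stayed between 0.896 and 1.28, with a change of 0.19 ± 0.082 at 6 h (adjusted p = 0.0583) and overlapping values.

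Irf8, needed for plasmacytoid and cross-presenting dendritic cells, rose at 6 and 12 h in both sources. Its scanner levels were 3.61, 3.61 and 3.67 at 0 h, 5.30, 5.14 and 5.20 at 6 h, 5.76, 5.83 and 5.76 at 12 h, and 3.71, 3.69 and 3.64 at 24 h. The 6 and 12 h arrays lay far above the rest, and 24 h overlapped with 0 h. It rose 3.00-fold at 6 h (log2 change 1.58 ± 0.049, adjusted p = 9.25e-10) and 4.46-fold at 12 h (2.16 ± 0.049, adjusted p = 7.86e-11). The second probe gave 1.60 and 2.13.

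In the table the ratio of Irf8 was 1, 0.948 and 1.08 at 0 h, 2.14, 2.05 and 1.96 at 6 h, 3.39, 3.50 and 3.19 at 12 h, and 3.25, 3.52 and 3.68 at 24 h. The columns at 12 and 24 h overlapped and stood above those at 6 h. Irf8 rose 2.03-fold at 6 h (1.02 ± 0.069, adjusted p = 3.52e-07), 3.33-fold at 12 h (adjusted p = 5.67e-09) and 3.45-fold at 24 h (adjusted p = 4.57e-09). The 6 h call lay at the 2-fold line. It fell to 0.90 when columns were divided by their medians, 0.72 with quantile normalization, 0.98 with the mean of both probes, and 0.98 or 0.99 without 0 h replicate 2 or 6 h replicate 1.

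Irf4, which in GM-CSF cultures takes part in forming dendritic cells and binds with Spi1 or Batf, was called in opposite directions. Its scanner levels were 0.0093, 0.096 and 0.047 at 0 h, 1.03, 0.75 and 0.90 at 6 h, 1.73, 2.08 and 1.70 at 12 h, and 0.048, -0.033 and 0.049 at 24 h. The 12 h arrays were the highest, those at 6 h lay between, and 24 h overlapped with 0 h. It was 1.80-fold above 0 h at 6 h (log2 change 0.84 ± 0.10, adjusted p = 2.95e-05), under the 2-fold line, and rose 3.45-fold at 12 h (1.79 ± 0.10, adjusted p = 7.07e-08).

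In the table the ratio of Irf4 was 1.04, 1 and 0.977 at 0 h, 0.253, 0.224 and 0.233 at 6 h, 0.208, 0.195 and 0.180 at 12 h, and 0.109, 0.125 and 0.120 at 24 h. Each time lay below the one before it, with no overlap. Irf4 fell 4.26-fold at 6 h (-2.09 ± 0.075, adjusted p = 3.06e-09), 5.20-fold at 12 h (adjusted p = 9.98e-10) and 8.54-fold at 24 h (adjusted p = 1.66e-10). A single probe of Irf4 stands behind both sets of values. Under no alternative within a source did the sign of these called changes turn.

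Irf5, a driver of inflammatory cytokine genes, stayed within 2-fold in both sources. Its scanner levels were 4.29, 4.27 and 4.28 at 0 h, 4.44, 4.39 and 4.48 at 6 h, 4.56, 4.59 and 4.68 at 12 h, and 4.36, 4.40 and 4.43 at 24 h. The 12 h arrays were the highest by a small margin and did not overlap with 0 h, with a change of 0.32 ± 0.043 (adjusted p = 5.62e-05) that turned to -0.14 with quantile normalization (adjusted p = 0.0176). In the table its ratio was 1, 0.929 and 1.09 at 0 h, 1.11, 1.09 and 1.03 at 6 h, 0.808, 0.819 and 0.788 at 12 h, and 0.611, 0.606 and 0.631 at 24 h. The change was -0.32 ± 0.060 at 12 h (adjusted p = 0.000767) and -0.70 ± 0.060 at 24 h (adjusted p = 2.3e-06), neither 2-fold.

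**Figure D2:**
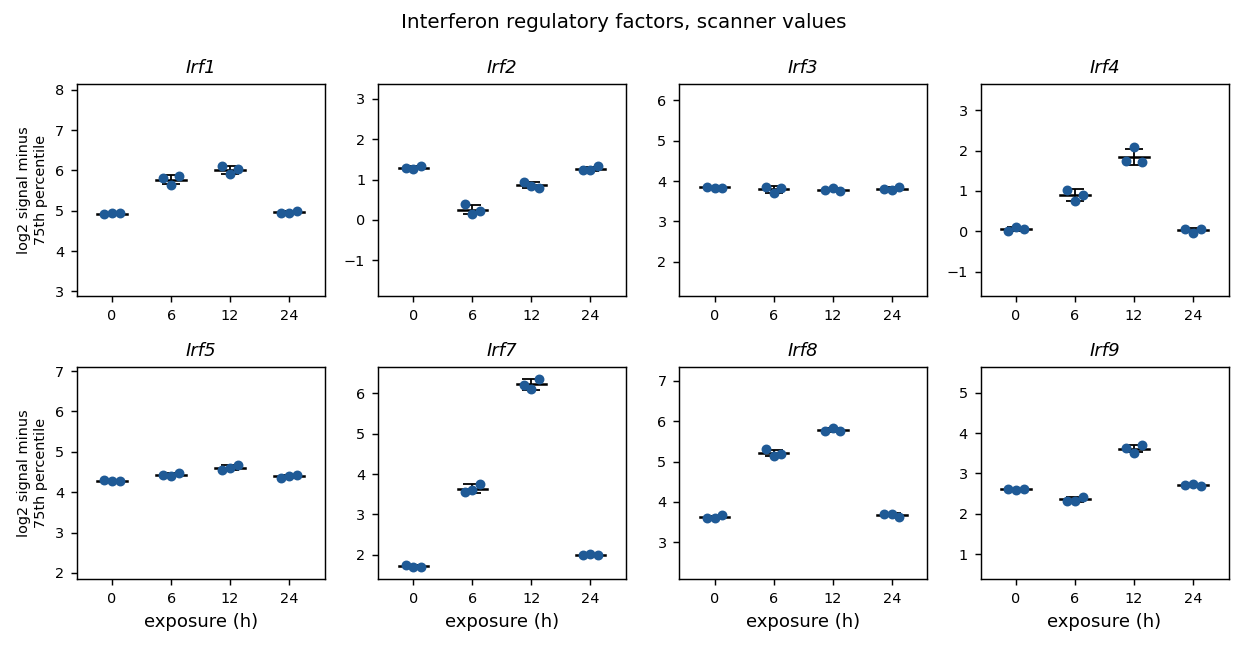
Scaled log2 signal (y axis) of the 8 members by hours of exposure (x axis) in the scanner values; points are the 3 arrays, bars the mean and SD, and every panel spans the same number of log2 units although levels cannot be compared between panels. Irf7 stands highest at 12 h (6.10 to 6.36), Irf2 lowest at 6 h (0.15 to 0.39), and the 24 h arrays lie near those at 0 h in every panel.

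**Figure D3:**
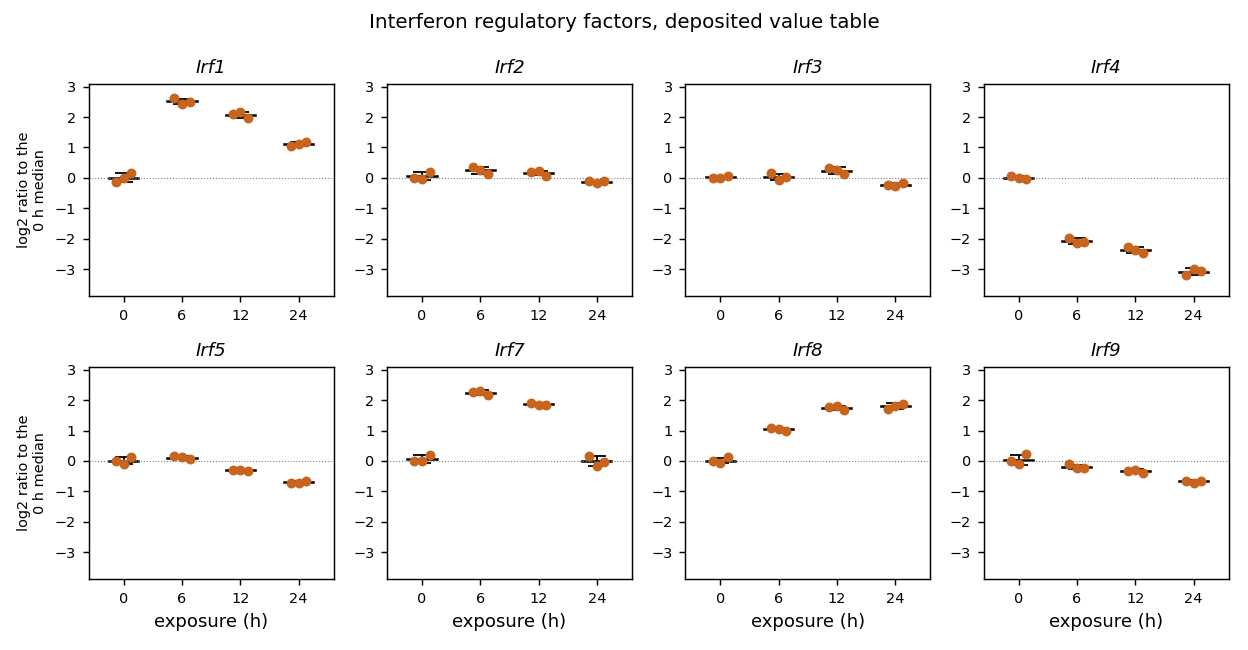
Log2 ratio to the 0 h median (y axis) of the same members by hours of exposure (x axis) in the value table, with points for the 3 columns of a time and bars for the mean and SD. Irf4 lies lower at each later time, Irf1 and Irf7 are highest at 6 h, and Irf8 stays high at 24 h (ratios of 3.25 to 3.68).

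Between neighbouring times, 12 h against 6 h called 2 of 8 members in the scanner values, Irf7 and Irf9, both higher, beside 4.88% of all genes higher and 6.99% in either direction. In the table limma called 0 of 8 in this comparison, beside 5.8% of all genes, while 6 of 8 had a p under 0.05, adjusted or not, with changes under 2-fold. How many of all genes had such a p whatever the fold was not counted, so nothing about the members is read from it. The 12 h to 6 h difference of Irf4 in the scanner values was 0.94 (adjusted p = 3.48e-05). It was past 2-fold with the slide as a block (1.08) and without 6 h replicate 1 or 12 h replicate 3 (both 1.01). At 24 h against 12 h the scanner values called 4 of 8, all lower (Irf1, Irf4, Irf7 and Irf8), beside 12.9% of all genes lower and 31% in either direction. Irf7 fell 18.7-fold there (adjusted p = 1.36e-11), Irf8 4.29-fold, Irf4 3.52-fold and Irf1 2.08-fold, the last not past 2-fold with normexp (-0.94) or quantile normalization (-0.49). The table called 1 of 8, Irf7, which fell 3.67-fold (adjusted p = 2.78e-07), beside 3.17% of all genes lower and 4.57% in either direction. Without 12 h replicate 3, Irf1 was also called lower there, with a change of -1.01.

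Within slides, which hold neighbouring times only, the scanner differences were of like size. Irf7 differed by 1.84 between 6 and 0 h on slide 1, 2.48 between 12 and 6 h on slide 2 and -4.36 between 24 and 12 h on slide 3. For Irf8 they were 1.67, 0.62 and -2.08, for Irf4 0.98, 1.08 and -1.68, for Irf1 0.89, 0.27 and -1.07, and for Irf9 -0.28, 1.20 and -0.98. The table gave Irf7 2.21, -0.37 and -1.86 and Irf4 -1.99, -0.18 and -0.61 over the columns with the same labels. Slides 1 and 3 hold a single array of 1 of the times, so these values carry no test of their own.

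The order of the times was tested between neighbours at an adjusted p under 0.05 whatever the fold. In the scanner values Irf1, Irf7 and Irf8 ran from 12 h through 6 h and 24 h to 0 h, and Irf4 from 12 h through 6 h and 0 h to 24 h. In all 4, 24 h and 0 h could not be separated (adjusted p of 0.851, 0.0585, 0.603 and 0.919) and the other neighbours differed. Irf9 ran from 12 h through 24 h and 0 h to 6 h, with 24 h and 0 h not separated (adjusted p = 0.306). In the table Irf1 ran from 6 h through 12 h and 24 h to 0 h with every step separated, and Irf4 from 0 h through 6 h and 12 h to 24 h, also with every step separated. Irf7 ran from 6 h through 12 h and 0 h to 24 h, with the last 2 not separated (adjusted p = 0.453). Irf8 ran from 24 h through 12 h and 6 h to 0 h, with the first 2 not separated (adjusted p = 0.592). These orders were read from the same means that were then tested, and not every step held under the alternatives. In the table limma's adjusted p for 12 h against 6 h reached 0.52 for Irf1, 0.906 for Irf4, 0.272 for Irf7 and 0.15 for Irf8. For 24 h against 12 h it reached 0.465 for Irf1 and 0.127 for Irf4, and for 24 h against 0 h 0.07 for Irf1. In the scanner values 12 h against 6 h reached 0.437 for Irf1.

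The genes above the family were counted from a list of 21 sensors, adaptors and kinases, of which 20 were tested. In the scanner values 7 were higher and 1 lower at 6 h and 10 higher and 0 lower at 12 h, and by the table's ratios 6 and 0 at 6 h and 6 and 1 at 12 h. Beside this and every following list, the scanner values had 10.2% of all genes higher and 15.9% lower at 6 h, and 13.7% higher and 16.9% lower at 12 h. The table had 13.3% higher and 11.8% lower at 6 h, and 15.7% higher and 12.1% lower at 12 h. Both kinases of Irf3 and Irf7 rose in both sources. Ikbke rose 3.60-fold at 6 h and 5.51-fold at 12 h in the scanner values (adjusted p = 5e-10 at 12 h), and 4.09-fold and 3.67-fold in the table. For Tbk1 the rises were 2.30-fold and 2.99-fold by the arrays, and 2.21-fold and 2.16-fold by the table. Tank, an adaptor of these kinases, rose 2.67-fold at 12 h by the scanner values and 3.44-fold by the table, and Ifih1, a sensor of double-stranded RNA, rose 9.26-fold and 2.46-fold. Ddx58, which senses RNA with a 5′ phosphate, was called in opposite directions at 12 h: it rose 4.54-fold in the scanner values and fell 2.09-fold in the table.

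Of 12 DNA-binding partners, 6 were higher and 1 lower at 6 h and 7 higher and 1 lower at 12 h in the scanner values, against 8 and 0 at 6 h and 6 and 0 at 12 h in the table. Batf, the partner of Irf4 and Irf8 on composite elements, rose 9.24-fold at 6 h and 16.2-fold at 12 h in the scanner values (adjusted p = 2.35e-12 at 12 h), and 3.52-fold and 3.22-fold in the table. Nfkb1, a subunit of NF-kB, rose 5.10-fold at 12 h by the scanner values and 2.42-fold by the table. Spi1, the partner that brings Irf4 and Irf8 to composite ETS sites, was not called, with changes of 0.57 and 0.80 at 6 and 12 h in the scanner values and 1.00 and 0.49 in the table. Batf3, which with Irf8 marks cross-presenting cells, was not called either (0.53 and 0.87, and -0.64 and -0.22). Spib, a close relative of Spi1, fell 6.18-fold at 12 h in the scanner values and rose 2.19-fold in the table.

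Of 9 genes for interferon beta, the interferon receptors and the kinases and STATs below them, 1 was higher and 1 lower at 6 h and 4 higher and 1 lower at 12 h in the scanner values, and 5 higher and 1 lower at both times in the table. Ifnb1, the interferon that Irf3 and Irf7 switch on, had scaled levels of -2.10, -2.04 and -2.01 at 0 h, 1.12, 0.84 and 1.05 at 6 h, and 0.18, 0.055 and 0.11 at 12 h. It rose 8.33-fold at 6 h and 4.49-fold at 12 h there, and 37.7-fold and 20.4-fold in the table, with the higher value at 6 h in both sources. As with Irf9, the sources differed on Stat2, which rose 3.62-fold at 12 h in the scanner values (adjusted p = 5.26e-10), against a change of -0.50 in the table (adjusted p = 8.29e-06), under 2-fold. Ifngr1, a chain of the interferon gamma receptor, fell 5.00-fold at 12 h by the scanner values and 2.03-fold by the table.

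Of 19 textbook targets of Irf3, Irf7 and ISGF3, 16 were tested. In the scanner values 10 were higher at 6 h and 16 of 16 at 12 h, with 0 lower, beside 10.2% and 13.7% of all genes higher. By the table's ratios 13 were higher and 1 lower at 6 h and 10 higher and 2 lower at 12 h. Their median change was 1.37 at 6 h and 3.19 at 12 h in the scanner values, against -0.059 and -0.029 over all genes, and 3.70 and 1.91 in the table, against 0.14 and 0.22. The higher median thus lay at 12 h in the scanner values and at 6 h in the table, as for Irf7. Cxcl10, a chemokine for activated T cells, rose 113-fold at 6 h and 19.5-fold at 12 h in the table. In the scanner values it was not called at 6 h (log2 change 0.91) and rose 8.85-fold at 12 h. Rsad2, an antiviral enzyme, rose 9.76-fold at 6 h and at least 23.0-fold at 12 h, where its spot was saturated, and 107.5-fold and 32.0-fold in the table. Ccl5 rose at least 15.0-fold at 6 h and at least 17.0-fold at 12 h, saturated at both times, and 17.9-fold and 27.4-fold in the table. Oas2 was called in opposite directions at 12 h, rising 3.21-fold in the scanner values and falling 3.80-fold in the table, as was Oas3 (7.18-fold higher and 2.39-fold lower).

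Of 20 targets of Irf1 and Irf8 in antigen presentation and defence, 19 were tested. In the scanner values 7 were higher at 6 h and 16 at 12 h, and by the table's ratios 12 at each time, with 0 lower in either source. Their median change at 12 h was 1.82 in the scanner values and 1.39 in the table. Nos2, the inducible nitric oxide synthase, rose at least 12.8-fold at 6 h and at least 44.4-fold at 12 h against spots not well above background at 0 h, and 7.86-fold and 9.78-fold in the table. Il12a, a subunit of interleukin 12, rose 50.1-fold at 12 h by the scanner values and 56.8-fold by the table. Gbp2, a guanylate-binding protein, rose 19.4-fold and 11.6-fold at 12 h. Cybb, the oxidase subunit whose promoter binds Irf1 and Irf8, rose 3.52-fold at 12 h in the table, with 1.75-fold in the scanner values, short of the line. Of 14 regulators of the family tested among 15, 6 were higher at 6 h in both sources, and 9 in the scanner values and 4 in the table at 12 h, with 0 lower. Tnfaip3, the A20 protein that restrains NF-kB and IRF signals, rose 16.4-fold at 12 h by the scanner values and 12.3-fold by the table.

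At 24 h against 0 h, 0 of the 89 tested genes of the 6 lists were called in the scanner values by limma, beside 0.837% of all genes. Of the 89, 26 had an unadjusted p under 0.05. The share of all genes with such a p was not counted, so nothing about the lists is read from it. In the scanner values the medians of the lists lay between 0.00062 and 0.12, against 0.042 over all genes. By the table's ratios 3 upstream genes were higher and 2 lower at 24 h, 3 partners were higher, 3 interferon and STAT genes were higher, 4 targets of Irf3, Irf7 and ISGF3 were higher and 3 lower, 6 targets of Irf1 and Irf8 were higher and 1 lower, and 3 regulators were higher and 1 lower. All genes stood at 13.3% higher and 13% lower. Ccl5 stayed 22.5-fold higher and Ifnb1 9.36-fold higher at 24 h in the table, while Oas2 fell 3.96-fold, Oas3 3.84-fold and Ifi44 4.37-fold.

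**Figure D4:**
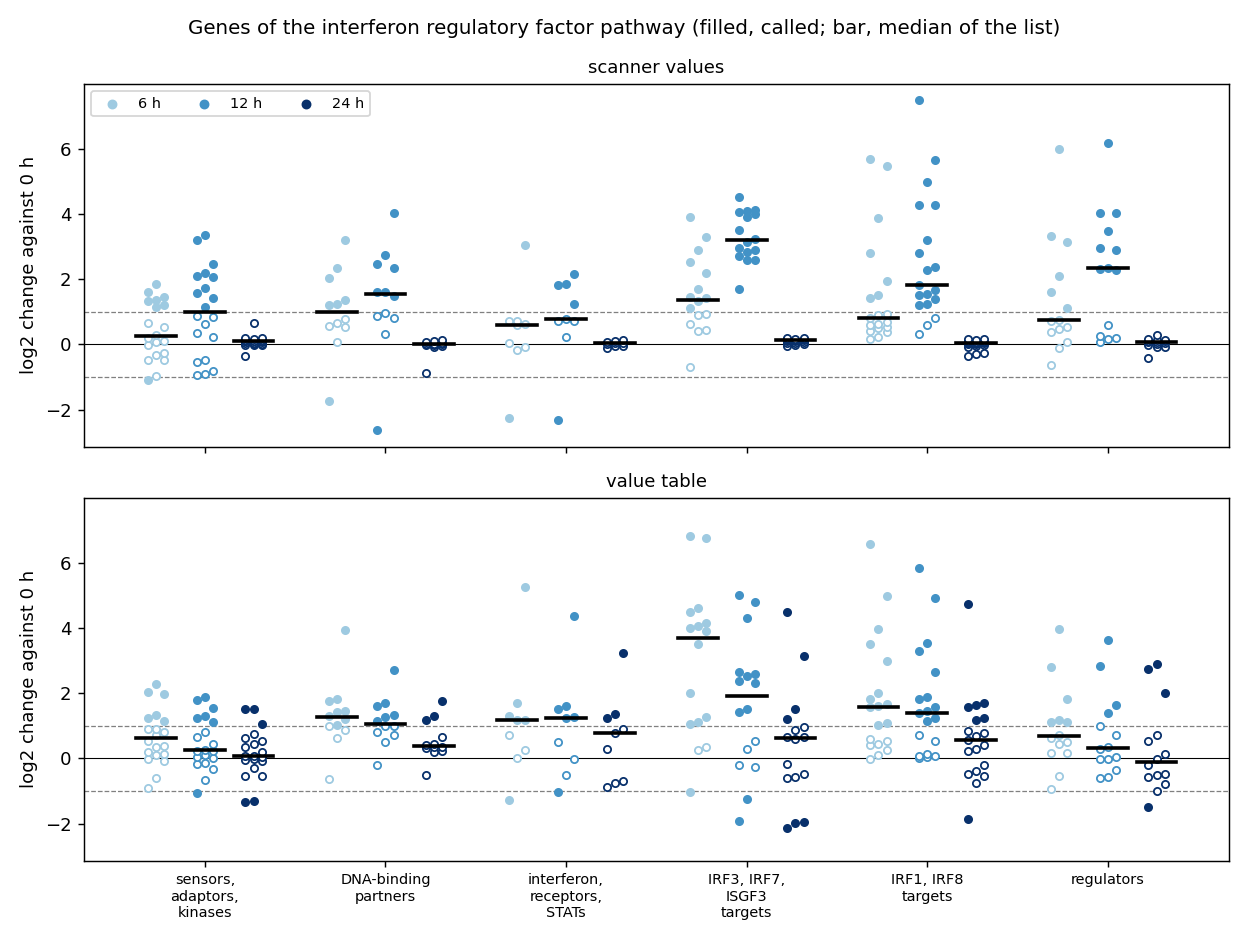
Log2 change against 0 h (y axis) of the tested genes of the 6 lists (x axis) at 6, 12 and 24 h, in the scanner values above and the value table below; filled points were called, bars are list medians and dashed lines mark 2-fold. The targets of Irf3, Irf7 and ISGF3 have their highest median at 12 h (3.19) in the scanner values and at 6 h (3.70) in the table.

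The genes with the most similar course, up to 3 for each member, were named by Pearson's r of the scaled levels over the 12 arrays, which stand for 4 times only and share slides and scaling. For Irf7 they were Zbp1, a sensor of Z-form nucleic acid, Rasa4 and Isg20, with r of 0.999 each, and over the 12 table columns the same pairs had r of 0.733, 0.574 and 0.980. For Irf1 they were Zfand2b, Tlr2 and Rbm8a (0.998, 0.997 and 0.997), with 0.871, 0.986 and 0.895 in the table. Tlr2 is a receptor for bacterial lipoproteins. For Irf8 they were Pla1a, Traf2 and Agrn (0.999 each), with -0.392, 0.751 and 0.956 in the table. For Irf4 they were Trip12, Bst2 and Nfil3 (0.998, 0.997 and 0.997), and the table gave -0.555, -0.913 and -0.159. Irf9 was nearest to Rbms2, Perp and Ap3m2 (0.996, 0.995 and 0.994), with -0.013, 0.638 and -0.771 in the table. Irf2 was nearest to Zfp444 and Dusp6 among others (0.996 and 0.994), with 0.135 and -0.458 in the table. Irf5 was nearest to Nr1h2, Anapc2 and Cnot6 (0.978, 0.972 and 0.970), with 0.0947, 0.345 and 0.970 in the table. Irf3, with its narrow range, was nearest to Zfp781, Zfp985 and Txlna (0.924, 0.901 and 0.881), with 0.416, 0.0513 and 0.280 in the table. Among the members themselves, Irf1 and Irf8 had r of 0.991 in the scanner values and 0.602 in the table, and Irf4 and Irf8 had 0.962 in the scanner values and -0.954 in the table.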

How the data were processed

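Cy3-labelled RNA of 12 samples was hybridised to Agilent 1-colour arrays. The deposited scanner files hold an intensity per spot from Agilent Feature Extraction 9.1.3.1, per the file headers and the submitters' processing notes. The authors' deposited value table holds, as its values show, the linear ratio of each probe to its median at 0 h, with a lowest value of 0.01. Its scaling between columns and the probes' genome build are not given in the sources used here.

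Processed signals were taken to log2, and the 75th percentile of each array's non-control spots was subtracted. The 732 outlier spots were left out. Probes well above background on every array of at least 1 group were kept (23496 of 41174), and of several probes for a gene the one with the highest mean was used. RefSeq accessions gave 11584 of 18407 genes a symbol. The 4 group means were fitted to all 12 samples with limma 3.58.1 in R 4.3.3, separately for each source, with 8 residual degrees of freedom, and p-values were adjusted by the Benjamini-Hochberg method over all genes. The code was tested on simulated data. The 3 arrays per time limit the precision, and p-values measure the spread between samples that the series design calls independent experiments.

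The members, gene lists and markers were chosen with earlier results of these data known. Named genes were the members, a fixed set of partners, the largest called rises and falls of each list, and the 3 genes most like each member. A few results under this rule are not reported here. Alternatives covered background correction, normalization, filters, probe choice, slide, replicate block, left-out replicates and the source. Normexp was planned on the mean spot signal and was run on the median one. That choice, and leaving out the 24 h samples, were made after seeing the data.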

Additional observations from a re-analysis of the deposited data

How the results depend on the processing

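Of the 40 member results from the scanner values, all 40 kept their direction and their side of the threshold with the replicate block, with outlier spots kept and with no filter on dim probes. A change of sign within a source was seen only for results not called in either fit: 6 with normexp, 4 with quantile normalization, 8 with the slide as a block and 2 with it as a random block in the scanner values, and 4 with columns divided by their medians and 3 with quantile normalization in the table, with 3 and 2 when 1 replicate was left out. Among them, Irf5 with quantile normalization was -0.15 at 6 h and -0.14 at 12 h against 0 h, and 0.25 at 24 h against 12 h (adjusted p of 0.0162, 0.0176 and 0.000687), where 0.15, 0.32 and -0.21 were found as reported. Normexp and quantile normalization each took 3 calls under 2-fold. With quantile normalization 3 members were called at 12 h against 0 h, where 5 were called as reported. With the value table in place of the scanner values, 21 of 40 results had the other sign. Of these 7 were called in either source: Irf2 at 6 h (0.19), Irf4 at 6 h (-2.09) and 12 h (-2.38), Irf9 at 12 h (-0.38), Irf7 and Irf9 at 12 h against 6 h (-0.39 and -0.15), and Irf8 at 24 h against 12 h (0.051). The other 14 were called in neither, such as Irf5 at 12 h (-0.32). The counts of members called were then 3 at 24 h against 0 h (0 in the scanner values), 0 at 12 h against 6 h (2) and 1 at 24 h against 12 h (4). Leaving out 1 replicate at a time gave 1 to 2 members called in the table at 24 h against 12 h, with 2 without 12 h replicate 3. The cause of these differences was not tested.

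The replicate block left all counts of members called as they were, 4 at 24 h against 12 h in the scanner values among them. Whether the replicate numbers pair the samples was not settled. Same-numbered samples had correlations of their deviations from the group means between -0.0853 and 0.155 in the scanner values, with 2 of 18 pairs over 0.1. In the table these were between -0.077 and 0.226, with 1 of 18 over 0.1. Samples with different numbers had -0.169 to 0.086 in the scanner values, with 0 of 36 over 0.1, and -0.181 to 0.128 in the table, with 2 of 36. With 3 samples per time, such weak correlations cannot exclude a pairing.

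Over all genes, normexp gave 2587, 3072 and 8 calls at 6, 12 and 24 h against 0 h, 577 at 12 h against 6 h and 3154 at 24 h against 12 h, where 4800, 5632, 154, 1286 and 5714 were called as reported. The 154 calls at 24 h in the scanner values became 96 with no filter on dim probes, 23 with the slide as a block, 10 with it as a random block, 86 with the replicate block, 24 to 291 without 1 replicate, and 4835 by the table. They were 128 higher and 26 lower, against 2 and 6 with normexp and 9 and 14 with the slide as a block. At 24 h against 12 h the table gave 841 calls. With quantile normalization the table's calls were 3286 at 12 h and 3168 at 24 h against 0 h, 395 at 12 h against 6 h and 269 at 24 h against 12 h, where 5116, 4835, 1067 and 841 were called as reported. Signal over background limited none of the members' probes.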
